A study of Homo sapiens with 6 samples.

Results

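The simple epithelial keratins KRT7, KRT8, KRT18, KRT19, KRT10 and KRT20 were followed in human embryonic stem cells after knockdown of alpha satellite RNA. These 6 genes were taken by symbol from a count table of 53719 gene rows. As a check, 83 rows of KRT8 and KRT18 copies (pseudogenes whose symbols start with KRT8P or KRT18P) were read. They are annotated as processed pseudogenes, except KRT18P55, which is annotated as unprocessed. The cells were H9, an established embryonic stem cell line of human origin, cultured in RSeT, a commercial medium for a naive-like pluripotent state. The knockdown group, labelled Sense3 with the genotype ALR Knockdown, was transfected with an antisense gapmer to ALR, the RNA of centromeric alpha satellite repeats. The other group received a control gapmer. Gapmers are short antisense strands whose DNA middle part lets RNase H cleave the bound transcript. Total RNA was taken 48 h later. The labels give 3 libraries per group, named a, b and c, and do not say whether they came from separate cultures, so p-values measure only the spread between these libraries. All 6 libraries share 1 cell line, the medium and a gapmer transfection. Values per library are given in the order a, b, c throughout. The level of alpha satellite RNA itself was not analysed here.

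Keratins are the intermediate filament proteins of epithelia. A filament needs an acidic type I keratin (KRT10, KRT18, KRT19 and KRT20 here) paired with a basic type II keratin (KRT7 and KRT8 here). KRT8 and KRT18 are the first keratins made in the embryo and mark simple, 1-layered epithelia, among them trophectoderm. KRT19 pairs with KRT8 in many simple epithelia, KRT7 is found in ducts, amnion and trophoblast, and KRT20 in intestinal and urothelial lining. KRT10 belongs to the differentiating layers of the epidermis, so its place among simple keratins is by the rule and not by its usual biology.

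The members were proposed with this same knockdown contrast in view. Their fold changes are therefore given as a description. Where the text says whether a member passed a threshold, this only places it in the table of all genes and supports nothing, since the same values chose the members.

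Total counts ran from 25087629 to 36576752 per library. Knockdown library a stood apart: it had counts in 29678 gene rows, and the other 5 libraries had counts in 25898 to 26788. Fold changes of the tested keratins and the summed level of the other keratins are given with and without it. Medians and sums of the related gene lists are given with it only. The labelled cell type was borne out by LIN28A, with a mean of 1757 CPM in knockdown and 1541 in control libraries, and by NANOG (194 and 181) and POU5F1 (133 and 99.8). CPM are the usual depth-scaled counts, here also scaled by TMM, a normalization that evens out library composition. DPPA3 had 20.3 and 18.8 CPM and DPPA5 had 1.12 and 0.999. The SOX2 row was listed at 0 in all 6 libraries, and KLF17, a marker of the naive state, held 1 to 10 counts per library.

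KRT8 and KRT18 have many copies of similar sequence in the genome, and this bears on what their counts mean, so sequence is shown first, for KRT18. A stretch of KRT18 coding sequence is compared with the best-counted KRT18 copies (GENCODE 29 transcripts, GRCh38, transcript strand, 5′ to 3′). Capitals mark bases of a copy that differ from the parent gene.

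In KRT18, exon 4 (chr12:52951481-52951540, plus strand), KRT18P17 (chr3:12787957-12788016) matched all 60 bases. KRT18P4 (chr20:49957400-49957459) differed at 2 positions and KRT18P34 (chr3:157163235-157163294) at 3.
KRT18: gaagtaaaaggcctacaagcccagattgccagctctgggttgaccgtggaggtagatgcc
KRT18P4: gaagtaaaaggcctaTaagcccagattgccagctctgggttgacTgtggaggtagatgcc
KRT18P17: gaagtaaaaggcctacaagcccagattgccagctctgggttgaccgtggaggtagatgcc
KRT18P34: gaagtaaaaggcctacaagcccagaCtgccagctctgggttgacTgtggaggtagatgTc

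Identity to the parent transcript over the aligned bases had a median of 91.2% over the 44 KRT8P rows (81.5 to 97.1%) and of 91.9% over the 39 KRT18P rows (83.0 to 95.6%). The window above is more alike than the copies shown are as a whole. Over all aligned bases KRT18P4, KRT18P17 and KRT18P34 were 92.0%, 93.9% and 91.9% identical to KRT18. Of all 50-base words in the KRT8 transcript, 36.6% occurred exactly in at least 1 copy, and 26.1% did in KRT18. A read from such a stretch matches more than 1 place. How the authors counted such reads was not given in the sources used here.

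The 3 abundant members were the type II keratin KRT8 and the type I keratins KRT18 and KRT19. KRT8 (ENSG00000170421.12, chr12:52897187-52949954) had 229, 245 and 209.8 CPM after knockdown, against 196, 187 and 185 in the controls. All 3 knockdown libraries lay above all 3 controls, and the lowest of them was 1.07 times the highest control. The means were 228 ± 17.8 and 189 ± 6.0 (SD over 3 libraries), with a log2 fold change of 0.27 ± 0.07 (SE), or 1.20-fold.

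KRT18 (ENSG00000111057.10, chr12:52948871-52952901), the partner of KRT8, had 97.4, 101 and 83.4 CPM after knockdown and 77.3, 71.3 and 69.9 in the controls. The groups again did not overlap, with the lowest knockdown library at 1.08 times the highest control. Means were 94.0 ± 9.40 and 72.8 ± 3.89 (SD over 3 libraries), with a log2 fold change of 0.37 ± 0.08 (SE), or 1.29-fold, the largest among the members tested.

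KRT19 (ENSG00000171345.13, chr17:41523617-41528308), a type I keratin unusual in lacking most of the tail domain, had 39.9, 45.1 and 36.2 CPM in knockdown libraries. It had 35.1, 32.4 and 33.7 in controls. The groups did not overlap, but the gap was narrow: knockdown library c was 1.03 times control library a. Means were 40.4 ± 4.47 and 33.7 ± 1.36 (SD over 3 libraries), with a log2 fold change of 0.26 ± 0.08 (SE), or 1.20-fold.

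In all 3 genes knockdown library b was the highest of the 6 libraries and knockdown library c the lowest of its group, so the knockdown libraries spread more than the controls. The coefficient of variation was 7.82%, 9.997% and 11.1% in knockdown libraries for KRT8, KRT18 and KRT19, and 3.17%, 5.35% and 4.02% in controls.

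KRT10 (ENSG00000186395.7, chr17:40818117-40822595) had 6.73, 4.49 and 3.64 CPM after knockdown, and 4.78, 4.12 and 4.29 in controls. The groups overlapped, since library a was the highest and library c the lowest of all 6. The log2 fold change was 0.17 ± 0.21 (SE), and without knockdown library a it was -0.11 ± 0.17. KRT10 lies across from TMEM99, a gene on the other strand whose span it shares for 3490 bases. TMEM99 held 80 to 131 counts per library, near the 92 to 191 counts of KRT10. Of their exonic bases, 56 are common to the pair, 2.61% of the KRT10 exons and 2.37% of the TMEM99 exons. The strand setting of the counting was not given, so reads of the pair could be mixed. Such mixing need not stop at the shared exonic bases, and its extent was not tested.

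KRT7 and KRT20 were near or at the limit of detection and were left out of the test by the filter on low counts. KRT7 (ENSG00000135480.15, chr12:52232520-52252186) held 6, 19 and 8 counts in knockdown libraries and 16, 7 and 11 in controls. The sums were 33 and 34 counts, and a difference was not detectable at this depth. KRT20 (ENSG00000171431.3, chr17:40875941-40885227) held 8 counts in knockdown library a, 2 in control library c and 0 in the other 4. A count of 0 allows up to 0.0899 to 0.119 CPM in those 4 libraries. These limits cover counting error only.

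**Figure D1:**
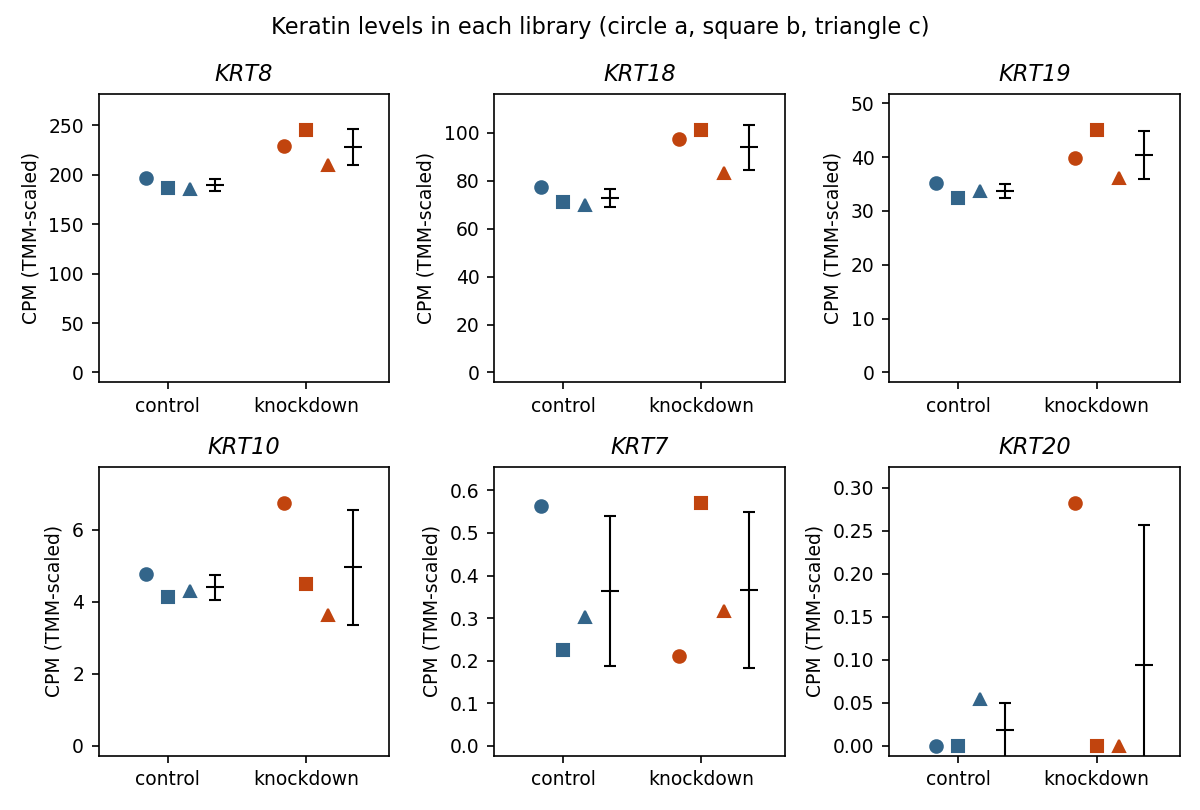
TMM-scaled CPM of the 6 keratins (vertical axes from 0, one scale per gene) in each control (blue) and knockdown (orange) library, with mean and SD beside the points. KRT8, KRT18 and KRT19 lie higher in every knockdown library than in any control, KRT10, KRT7 and KRT20 do not.

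The filter kept 4 of the 6 members. With edgeR's quasi-likelihood test over all 19721 genes, 0 of these 4 passed a Benjamini-Hochberg adjusted p of 0.05, where 0.786% of all tested genes passed (155 genes). By direction, 0.137% of genes passed as higher (27 genes) and 0.649% as lower (128 genes). In 3 of the 4 every knockdown library lay above every control, against 9.55% of all genes in that direction. The median log2 fold change was 0.26 over the 4 members and 0.02 over all genes tested. KRT18 stood at the 90.1st percentile of all log2 fold changes, KRT8 at the 85.0th, KRT19 at the 84.6th and KRT10 at the 77.2nd. Because the members were proposed from this contrast, nothing is read from these shares.

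Calls changed with the setting, and they carry the same limit as above. Without knockdown library c, KRT8, KRT18 and KRT19 passed the edgeR adjusted threshold, in a fit where 6.4% of all genes passed (1309 genes). KRT8 and KRT18 also passed under DESeq2's Wald test (3.9% of genes) and with no low-count filter (3.29%), and KRT18 alone with library size alone (0.801%) and with the replicate letter as a block (1.99%). In the remaining 11 alternatives no member passed. The shares of all genes that passed there were 0.791% with DESeq2 size factors, 0.796% with upper-quartile scaling, 0.882% with limma-voom, 1.09% among genes averaging 50 counts or more, 0.786% with copies added and 1.43% with the span trend removed. They were 0.507% without knockdown library a, 0.301% without knockdown library b, 0.127% when control library a was left out, and 0.208% when either b or c of the controls was.

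Fold changes of the 3 abundant keratins kept their sign in all 16 alternatives. Every knockdown library lay above every control in these genes, so leaving out a library left little room for a change of sign. The other alternatives reused the same counts, so nothing is read from the kept sign. The fold changes ran from 0.20 to 0.30 for KRT8, 0.30 to 0.43 for KRT18 and 0.17 to 0.31 for KRT19 on the log2 scale. Without knockdown library a, which stood apart in its detected rows, they were 0.26 ± 0.08, 0.34 ± 0.09 and 0.27 ± 0.10 (SE). Gene length moved with the contrast. Among tested genes with an annotated span, the median log2 fold change was 0.07 in the tenth with the shortest spans (up to 4.602 kb) and -0.07 in the tenth with the longest (from 190.1 kb). KRT18, KRT19 and KRT10 span 4.03, 4.69 and 4.48 kb, and KRT8 spans 52.8 kb. With each library's trend on span removed, the values were 0.30 ± 0.08 for KRT18, 0.23 ± 0.09 for KRT8 and 0.19 ± 0.08 for KRT19.

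**Figure D2:**
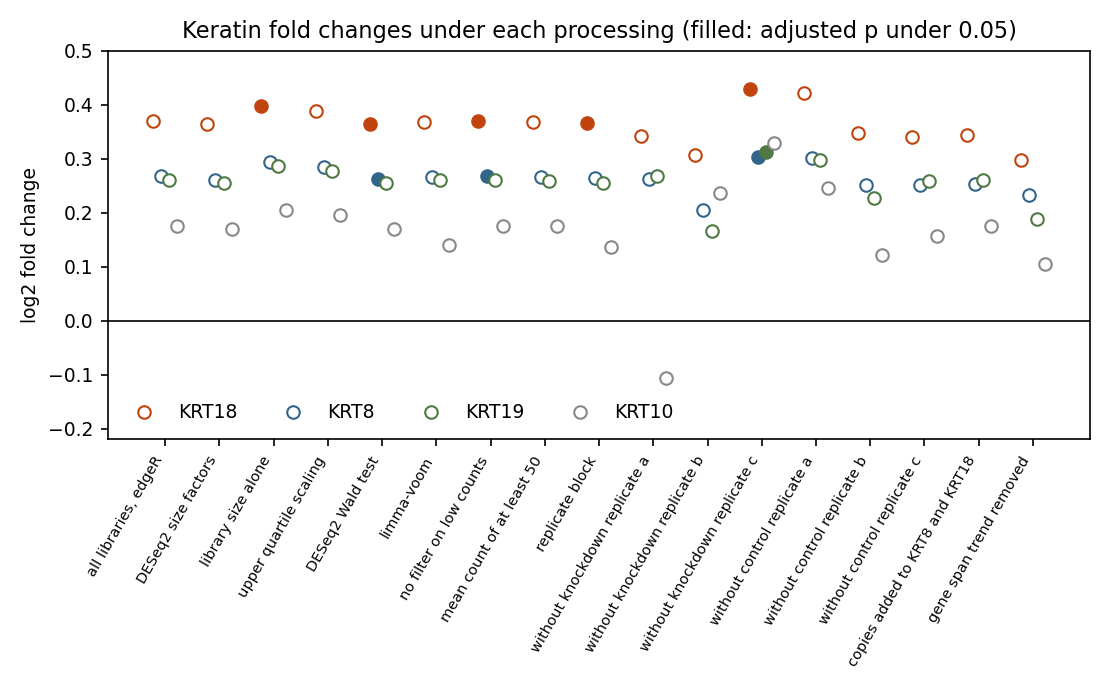
Log2 fold change, knockdown against control (vertical axis), of KRT18, KRT8, KRT19 and KRT10 with all libraries and under each of the 16 alternatives (horizontal axis). Filled points have an adjusted p under 0.05, and KRT10 lies below 0 without knockdown library a, at -0.11.

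Levels were compared between genes per kilobase of exon, using GENCODE 29 because the authors' annotation is not named in the sources used here. By the union of all annotated exons, KRT8 had 33.1 ± 2.59 CPM per kb in knockdown and 27.5 ± 0.872 in control libraries. KRT18 had 29.2 ± 2.92 and 22.6 ± 1.21, and KRT19 had 17.3 ± 1.91 and 14.4 ± 0.581. KRT10 followed at 2.31 ± 0.745 and 2.05 ± 0.16, KRT7 at 0.0894 ± 0.0449 and 0.0889 ± 0.0432, and KRT20 at 0.0509 ± 0.0882 and 0.00994 ± 0.0172. In knockdown libraries the ranges of KRT8 and KRT18 overlapped on this scale, as did those of KRT7 and KRT20. The exon union of KRT8 over all its annotated transcripts is long (6881 bases). By the length of the first-numbered transcript (1882 bases), KRT8 had 121 ± 9.47 and 100.7 ± 3.19 CPM per kb, clearly above KRT18 (1562 bases) at 60.2 ± 6.02 and 46.6 ± 2.49. The order of the members was the same on either scale.

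Ratios between pair partners moved less than the levels. These partners were chosen with this contrast in view and all moved up, which largely cancels in a ratio, so nothing is read from this. The count ratio of KRT18 to KRT8 was 0.426, 0.413 and 0.398 after knockdown, and 0.393, 0.382 and 0.377 in controls. The ratio of KRT19 to KRT8 was 0.174, 0.184 and 0.172 in knockdown libraries and 0.179, 0.174 and 0.182 in controls, with no separation of the groups. The first ratio was higher in every knockdown library, by a small margin, and the second overlapped. Set against the summed type I partners KRT18 and KRT19 per exon length, KRT8 stood at 0.714 ± 0.0196 in knockdown and 0.743 ± 0.0114 in the controls (SD, n = 3). Per transcript length the same ratio was 1.36 ± 0.0379 and 1.42 ± 0.0223, so whether the type II partner exceeded its type I partners depended on the length used.

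The 3 abundant keratins varied together across libraries. Pearson's r of log2 CPM over the 6 libraries was 0.99 between KRT8 and KRT18, 0.98 between KRT8 and KRT19 and 0.95 between KRT18 and KRT19. After subtraction of the group means it was 0.97, 0.97 and 0.89. KRT10 followed them less closely, with r between 0.38 and 0.49. These are descriptions over 6 points that share the 2 groups and the library scaling.

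The genes whose profile was most like the mean of KRT8, KRT18 and KRT19 were picked from 8991 genes with a mean count of at least 500. They were the fucosyltransferase gene FUT10 (r = 0.999 over 6 libraries), the linker histone gene HIST1H1B (0.996), the endoplasmic reticulum chaperone HYOU1 (0.995), the collagen lysyl hydroxylase PLOD1 (0.995) and the class I antigen gene HLA-C (0.994). HIST1H1B had 285, 305 and 246 CPM in knockdown libraries and 239, 218 and 217 in controls. HYOU1 had 321, 349 and 303 against 284, 266 and 269.6. Their log2 fold changes were 0.31 ± 0.08 and 0.25 ± 0.07 (SE), and the smallest, that of FUT10, was 0.09 ± 0.07. With 6 points and this many candidates, such values of r are a ranking only.

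Rows of KRT8 and KRT18 copies held few counts beside their parent rows. Of the 44 KRT8P rows, 21 had a count in any library, and KRT8P12 (ENSG00000229320.3, chromosome 3) held most of them, with 181, 265 and 205 counts in knockdown libraries and 224, 267 and 268 in controls. The next were KRT8P4 with a mean of 22.7 counts and KRT8P29 with 17.0. Summed, the KRT8P rows came to 4.14%, 4.15% and 5.22% of the KRT8 count after knockdown, and to 5.21%, 5.83% and 5.50% in controls.

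Of the 39 KRT18P rows, 27 had a count. Their sums were 80, 76 and 70 counts after knockdown, and 57, 180 and 87 in the controls. Control library b stood apart, with an exact 95% Poisson interval of 155 to 208 that did not reach the other 5 libraries (highest upper bound 107). It held 8.13% of the KRT18 count in these rows, against 2.25 to 3.42% elsewhere. Of the 7 KRT18P rows with 10 counts or more in at least 1 library, 6 were highest in this library. Among these, KRT18P51 (20 counts), KRT18P28 (13) and KRT18P23 (17) reached 10 counts in this library alone. The filter thus favoured this library, and nothing is read from the 6. KRT18P17, the copy identical to KRT18 in the window above, held 43 counts there and 1 to 10 in the others. KRT18P34 held 30 against 2 to 15, and KRT18P4, the best-counted copy, 29 against 12 to 26. The mean share was 1.90 percentage points lower in knockdown than in control libraries with control library b and 0.19 without it.

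Adding the copies to their parent rows left the fold changes near their values, at 0.25 ± 0.07 for KRT8 and 0.34 ± 0.08 for KRT18 on the log2 scale (SE). The parents also touch each other: KRT8 and KRT18 lie on opposite strands, their spans overlap by 1084 bases, and 525 exonic bases are common to the pair, 16.3% of the KRT18 exons.

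**Figure D3:**
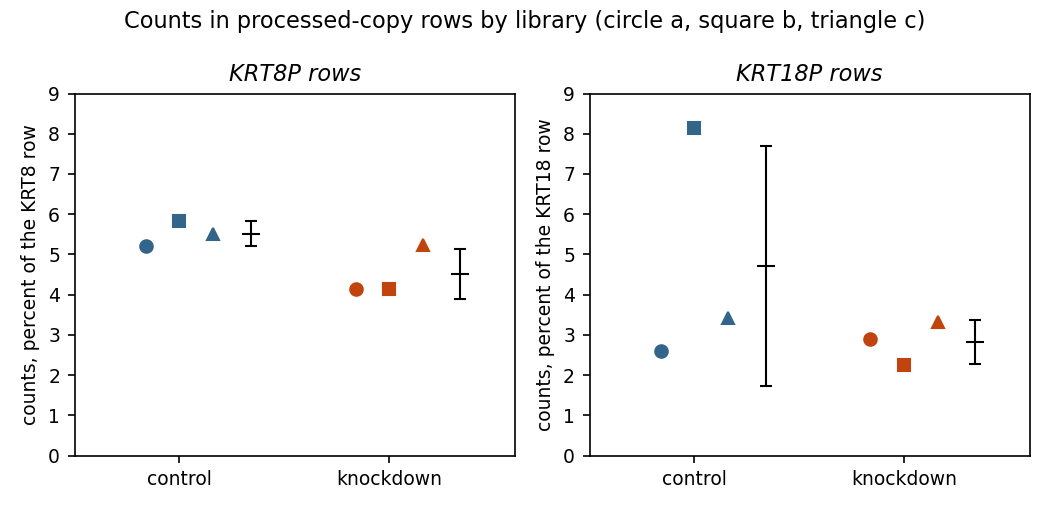
Counts in all KRT8P rows (left) and all KRT18P rows (right) as a percent of the parent row's count (vertical axes) in each control (blue) and knockdown (orange) library, with mean and SD. Control library b reaches 8.13% in the KRT18P rows, the other libraries stay between 2.25 and 3.42%.

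The remaining keratins were nearly silent. KRT8, KRT18 and KRT19 held 97.3 to 97.8% of all counts over the 55 keratin gene rows in 5 libraries, and 96.0% in knockdown library a (95% Wilson interval 95.6 to 96.3, counting error only). Of the 49 other keratin genes, 1 passed the filter on low counts. This was KRT222, a keratin-like type I gene, with 3.45, 2.73 and 2.49 CPM in knockdown and 2.04, 2.22 and 2.26 in control libraries. Its groups did not overlap, and its log2 fold change was 0.41 ± 0.21 (SE; edgeR adjusted p = 0.395), 0.26 ± 0.21 without knockdown library a. The next by level were the hair keratin KRT86 with 5 to 12 counts per library and KRT80 with 3 to 14. KRT15, a basal epidermal keratin, held 2 to 5.

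Knockdown library a had a count in 36 of these 49 genes, and the other libraries in 9 to 18. Their summed level was 8.07, 3.60 and 3.60 CPM after knockdown, and 3.34, 3.58 and 3.33 in controls. The difference of 1.67 CPM (exact permutation p = 0.10, two-sided, the smallest that 3 against 3 allows) was 0.18 without knockdown library a. Without KRT222 the sums were 4.62, 0.869 and 1.11 CPM after knockdown and 1.30, 1.35 and 1.07 in the controls, so the groups overlapped (difference 0.956, exact permutation p = 0.9, two-sided). The KRT20 counts and the high KRT10 value came from this same library.

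**Figure D4:**
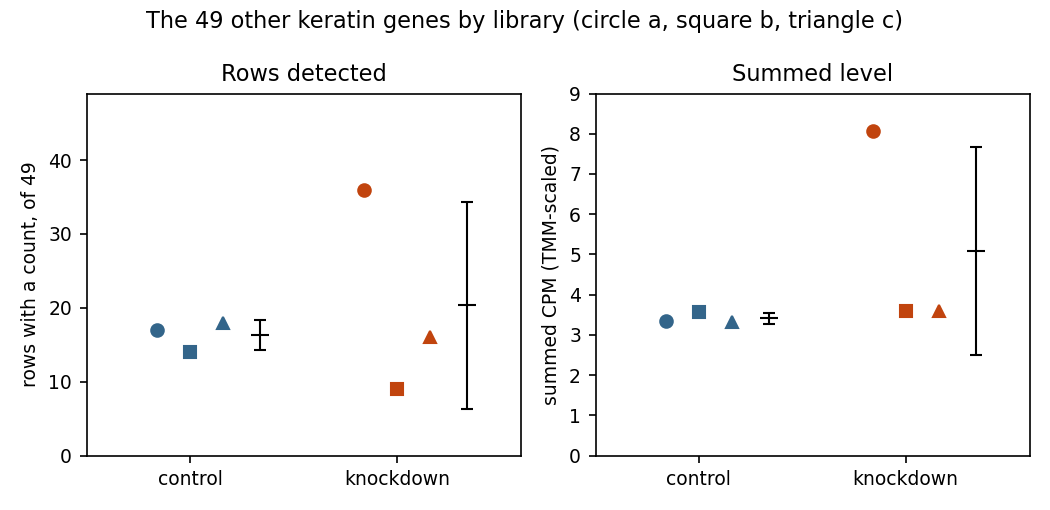
The 49 keratin genes other than the members in each control (blue) and knockdown (orange) library, with mean and SD: rows with a count (left, of 49) and summed TMM-scaled CPM (right). Knockdown library a has 36 rows and 8.07 CPM, the other 5 libraries have 9 to 18 rows and 3.33 to 3.60 CPM.

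Other intermediate filament genes were set beside the keratins. Of 14 tested, 0 passed in the higher direction and 1 fell: NEFL, the light neurofilament chain, with 26.3, 29.1 and 26.0 CPM in knockdown and 42.3, 42.3 and 34.8 in control libraries. Its log2 fold change was -0.55 ± 0.09 (SE; edgeR adjusted p = 0.0159), and it passed in 14 of 16 alternatives. It lost the call without control library a or without control library b. The most abundant were the progenitor filament gene NES (369 ± 26.4 against 320.1 ± 28.4, 0.20 ± 0.08) and the lamin gene LMNB1 (346 ± 17.9 against 319 ± 6.98, 0.11 ± 0.07), which did not pass. The median log2 fold change of the list was 0.03. The lamin gene LMNB2, named after its values were seen, passed as higher with no low-count filter (0.26, edgeR adjusted p = 0.025).

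VIM, the filament protein of mesenchymal and many undifferentiated cells, was added after its values were seen. It had 212, 216 and 193 CPM in knockdown and 257, 243 and 234 in control libraries. The groups did not overlap, with knockdown below, and the log2 fold change was -0.24 ± 0.07 (SE; edgeR adjusted p = 0.146). VIM passed under DESeq2's Wald test (adjusted p = 0.0267), with no low-count filter (0.0479) and without knockdown library c (0.0488). The ratio of KRT8 to VIM counts, which needs no scaling between libraries, was 1.08, 1.13 and 1.09 in knockdown and 0.765, 0.768 and 0.794 in control libraries. A ratio of a gene seen higher to a gene seen lower separates the groups by its choice, so nothing is read from it.

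**Figure D5:**
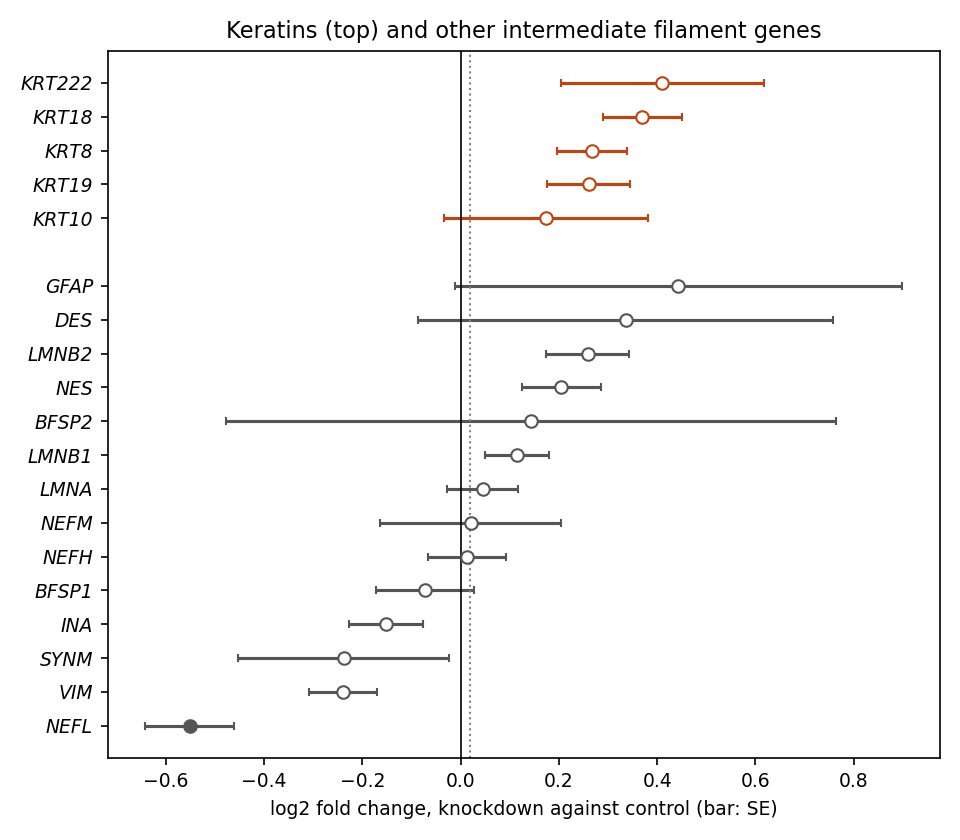
Log2 fold change, knockdown against control, with SE (horizontal axis) for tested keratins (orange) and other tested intermediate filament genes (grey). Open points did not pass an adjusted p of 0.05, the dotted line is the median of all genes tested (0.02), and NEFL at -0.55 is the 1 gene that passed.

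Genes that anchor, bind or regulate keratins gave 0 calls in either direction in the edgeR fit first described above. At an unadjusted p under 0.05, 14.3% of all genes tested differed (2811 genes), 6.68% as higher, and the counts of listed genes at this threshold below are to be read against these shares. Of 19 tested genes of desmosomes and plakins, which tie keratin filaments to the cell border, 1 had an unadjusted p under 0.05. The median log2 fold change was 0.04, and the most abundant, the spectraplakins MACF1 and DST, had 718 ± 53.5 against 695 ± 49.8 CPM and 656 ± 31.3 against 704 ± 27.2. PLEC, the plectin gene, was the 1 with an unadjusted p under 0.05, at 221 ± 23.4 against 192 ± 5.66 CPM (0.20 ± 0.08, edgeR adjusted p = 0.275), named after its values were seen. Of 19 tested genes whose products bind, modify or cleave keratins, 3 had an unadjusted p under 0.05 (2 higher, 1 lower) and the median was 0.02. The 14-3-3 genes YWHAZ and YWHAE, the most abundant, were at 0.01 and 0.05 on the log2 scale.

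Of 23 tested epithelial transcription factors and splicing regulators, 2 had an unadjusted p under 0.05, both lower, and the median was -0.02. The splicing regulator ESRP1 had 316 ± 4.51 against 329.5 ± 16.2 CPM. SP1, a general activator, had 194 ± 7.94 against 188 ± 10.005. Of 28 epithelial adhesion genes, 5 had an unadjusted p under 0.05 (3 higher, 2 lower) and the median was 0.05. The lower ones were the polarity gene PARD3 (-0.31 ± 0.11) and the small GTPase gene RAB25 (-0.39 ± 0.14), and the higher ones the tight junction gene CGN (0.23 ± 0.08), CDH1 and CLDN6, on the log2 scale (SE). CTNNB1, the catenin of adherens junctions, had 568 ± 19.1 against 525 ± 12.5 CPM, and CTNND1 had 457 ± 31.4 against 443 ± 9.37. CDH1, the epithelial cadherin, was at 155 ± 10.2 against 134 ± 2.36 (0.21 ± 0.07, edgeR adjusted p = 0.185), and the claudin CLDN6 at 148 ± 8.86 against 121 ± 2.39 (0.29 ± 0.07, edgeR adjusted p = 0.0702). These 5 were named after their values were seen, and the groups overlapped in neither CDH1 nor CLDN6. CLDN6 passed under DESeq2's Wald test, with no filter, with library size alone, with upper-quartile scaling, with a mean count of at least 50, with the replicate block and without knockdown library c. CDH1 passed only without knockdown library c (edgeR adjusted p = 0.0347), as did the desmosomal gene DSP as higher (0.23, 0.0282) and PKP4, a plakophilin, as lower (-0.33, 0.00606), both chosen after their values were seen. PARD3 passed as lower without knockdown library c (-0.49, edgeR adjusted p = 0.00395) and with no filter (-0.31, 0.00437).

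Markers of other keratin-rich cell types were then read, since more cells of a type and more RNA per cell cannot be told apart in bulk RNA. Of the 20 trophectoderm markers, 12 had a mean below 1 CPM. CDX2 held 0 to 3 counts per library, HAND1 0 to 3, GATA3 7 to 22 and GATA2 18 to 27. The summed level of the list was 205 to 207 CPM in knockdown and 196 to 209 in control libraries, most of it from SLC7A2 (64.9 ± 2.81 and 57.4 ± 4.85) and TFAP2C (54.0 ± 0.628 and 58.1 ± 3.39). TFAP2C is also expressed in naive pluripotent cells. Of its 13 tested genes, 0 passed and the median was 0.09.

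Amnion and surface ectoderm markers summed to 31.3 to 37.9 CPM in knockdown and 28.5 to 32.0 in control libraries, led by BAMBI (21.1 ± 1.80 and 18.9 ± 1.51) and HEY1 (5.21 ± 0.173 and 3.70 ± 0.804). Of the 15 markers in this list, 10 had a mean below 1 CPM. With all libraries, its median log2 fold change was 0.31 over 9 tested genes, of which 0 passed. ISL1 held 8 to 17 counts and KRT5 0 to 10. Endoderm and mesoderm markers summed to 31.2 to 35.6 and 27.9 to 30.9 CPM, led by MIXL1 (13.1 ± 0.888 and 11.3 ± 1.19) and CXCR4 (6.44 ± 0.516 and 5.45 ± 0.311). Their median was 0.23 over 8 tested genes, of which 0 passed. SOX17 held 0 to 4 counts and GATA6 5 to 24. The knockdown range of the summed level thus lay narrowly above the control range in the endoderm and mesoderm list (lowest knockdown 31.2, highest control 30.9 CPM). It overlapped the control range in the trophectoderm and the amnion lists. Of the 17 endoderm and mesoderm markers, 12 had a mean below 1 CPM. Among single genes, 9.55% of those tested lay above the controls without overlap, and nothing is read from this separation. The part of such cells in the keratin values was not tested.

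Mesenchymal genes summed to 674 to 696 CPM in knockdown and 730.4 to 753 in control libraries, without overlap. The neural cadherin gene CDH2 had 271 ± 16.2 against 315 ± 16.7 CPM (-0.22 ± 0.07, edgeR adjusted p = 0.192), which passed without knockdown library c at 0.0187, and FN1, fibronectin, had 228 ± 22.8 against 229 ± 9.11. Of 14 tested genes 0 passed, 2 were higher and 3 lower at an unadjusted p under 0.05, and the median was 0.03. Calls in single settings went both ways, in genes named after their values were seen. TAGLN, a smooth muscle actin-binding gene, passed as higher without knockdown library c (0.46, edgeR adjusted p = 0.0316) and the receptor gene PDGFRB with no filter (1.149, 0.0483). The transcription factor gene ZEB2 passed as lower without knockdown library c (-0.40, 0.00887), with no filter (-0.30, 0.0179) and under DESeq2's Wald test (-0.31, 0.0431). Pluripotency markers summed to 4862 to 5504 CPM in knockdown and 4911 to 5037 in control libraries. Of their 18 tested genes 0 passed, and the median was 0.04. LIN28A and L1TD1, the most abundant, had log2 fold changes of 0.19 ± 0.07 and -0.01 ± 0.07 (SE). Without knockdown library c, LIN28A passed (edgeR adjusted p = 0.0171). POU5F1 passed there too (0.0441), under DESeq2's Wald test (0.00515) and with no filter (1.37e-05).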

How the data were processed

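The labels name 6 libraries of H9 cells, 3 per group, made with a directional kit. The authors deposited raw read counts per gene symbol, and the submitters' processing notes name Trimmomatic 0.39, STAR 2.7.8a, featureCounts and Subread 2.14.2 with build hg38. Roles, annotation, strand and multi-mapping settings were not given in the sources used here. From these counts, differential expression was computed with edgeR 4.0.16 (R 4.3.3) over all genes kept by filterByExpr, with TMM scaling, group as the only term and Benjamini-Hochberg adjustment at 0.05. Of 53719 rows, 31499 matched GENCODE 29 by name and 1337 by another symbol, and 81.0% of tested genes had a span. Alternatives used DESeq2 1.42.0, limma 3.58.1, other scalings and filters, a replicate block, a span correction by natural splines with 5 degrees of freedom, copies added to parents, and each library left out. Permutation tests used SciPy 1.17.1. The fit was tested on simulated data. Genes were named by rule: all members, the 3 best-counted copies per parent, list genes that passed (at most 3), the 2 most abundant per list, the cell line's markers and the 5 genes most like KRT8, KRT18 and KRT19 in profile. Other genes were named outside this rule, many of them after their values were seen. The members and lists were chosen with earlier results of these data known. Of 22 pluripotency markers, 21 had a row. A KRT8 sequence comparison is not reported here.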

Additional observations from a re-analysis of the deposited data

How the results depend on the processing

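The count of changed genes (155) was 530 under DESeq2's Wald test, 1064 with no low-count filter, 393 with the replicate block and 26 to 1309 when each library was left out. Keratins called (0) were 1 with library size alone, 2 under DESeq2, 2 with no filter, 1 with the replicate block and 0 to 3 with a library left out. KRT8 passed at 0.26 under DESeq2 and 0.27 with no filter, and ran from 0.20 to 0.30 with a library left out. KRT18 passed at 0.40 with library size alone, 0.36 under DESeq2, 0.37 with no filter and 0.37 with the replicate block, and ran from 0.31 to 0.43. KRT19 ran from 0.17 to 0.31. KRT10 was -0.11 without knockdown library a, and up to 0.33 with another library left out. Among the related lists, higher calls (0) were 1 with library size alone, 1 with upper-quartile scaling, 2 under DESeq2, 4 with no filter, 1 with a mean count of at least 50, 1 with the replicate block and 0 to 6 with a library left out. Lower calls (1) were 3 under DESeq2, 5 with no filter, 2 with the span trend removed and 0 to 6 with a library left out. Why these counts differ was not tested. Whether libraries of the same letter belong together is not given by the labels. Deviations from the group means correlated at 0.0011 for a, 0.113 for b and -0.0253 for c, which cannot settle it. The replicate block changed no call among the members and listed genes other than those of KRT18 and CLDN6, which then passed. Depth limits KRT7 and KRT20, which held 0 to 19 counts per library.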
